A study of Mus musculus with 18 samples.

Results

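Interferon-stimulated genes were followed in 18 mouse hearts taken 9 weeks after intravenous delivery of an adeno-associated viral vector. The 9 genes (Ifit1, Ifit3, Irf7, Isg15, Oasl2, Rsad2, Bst2, Usp18 and Ifi44) were chosen by name, as genes whose transcription interferon is known to raise, by a rule that uses no measured value, although earlier results of these data were known when the set was chosen. All 9 were present in the count table of 23457 genes and in the FPKM table of 23396 genes. All 9 also passed the filter on low counts, which left 12281 genes for testing.

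The hearts came from male C57BL/6 mice that received vector through the tail vein at the age of 8 weeks and were killed for tissue at the age of 17 weeks. There were 6 hearts a group. The first group received rAAV6-blank, a vector with a promoter and no protein product. The other groups received FLAG-tagged rAAV6-PLCβ1a or rAAV6-PLCβ1b, which carry the splice variants of phospholipase Cβ1, an enzyme that splits the membrane lipid PIP2 downstream of Gαq. Every heart therefore carried vector and uninjected hearts were not analysed here, so the values below compare vectors with each other and cannot show what the vector itself did. The labels name both ventricles as the tissue, whereas the study's methods name the left ventricle. The RNA was from whole tissue, in which fewer cells of a type and less RNA per cell cannot be told apart.

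Type I interferons are made by cells that sense foreign nucleic acid, and they bind the Ifnar1/Ifnar2 receptor on the same or neighbouring cells. The receptor's kinases Jak1 and Tyk2 then pass the signal to the nucleus, where it acts through a short DNA element, the interferon-stimulated response element, in the promoters of target genes. Some of the products block viruses directly, Irf7 feeds the response forward, and Usp18 with Isg15 damps or modifies it. In the heart these genes are of interest after gene delivery because viral vectors can be sensed as foreign DNA.

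The element was searched, on both strands, as GAAA, any 2 bases and GAAA again, in the 300 bases that run from 250 before to 50 after each annotated start (RefSeq promoters, build GRCm38.p6). Promoters were found for 8 of the 9 genes, Usp18 being the exception, and 5 of the 8 held at least 1 match. The same motif was present in 3.99% of the 27025 genes with a promoter in the table. The stretches that hold the matches are shown for these 5 genes, which differ in the number, strand and spacing of the matches. Each is written 5′ to 3′ on the strand of the gene, with the matched bases in capitals and 12 bases on either side.
Ifit1: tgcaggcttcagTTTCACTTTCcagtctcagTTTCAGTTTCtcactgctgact
Ifit3: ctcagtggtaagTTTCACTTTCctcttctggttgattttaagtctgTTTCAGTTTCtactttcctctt
Isg15: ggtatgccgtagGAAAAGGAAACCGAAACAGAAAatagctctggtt
Rsad2: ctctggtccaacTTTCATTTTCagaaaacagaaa
Bst2: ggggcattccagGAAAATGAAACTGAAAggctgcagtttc

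The Ifit1 stretch lies at chr19:34640773-34640825 on the plus strand, with its 2 matches starting 104 and 85 bases before the start of the gene. The Ifit3 stretch lies at chr19:34583361-34583428, also on the plus strand, with 2 matches starting 156 and 122 bases before the start. In both genes the matches are on the strand opposite to the gene, as in Rsad2. Isg15 (chr4:156200863-156200908, minus strand) held 3 matches that overlap one another, the first of them 78 bases before the start, and Bst2 (chr8:71537575-71537614, minus strand) held 2 that overlap, the first at 130 bases. Rsad2 (chr12:26456551-26456584, minus strand) held 1 match, 120 bases before its start. No match was found in these windows for Irf7, Oasl2 or Ifi44, which says only that these letters are not there. In a list of 40 other interferon-induced genes with a promoter in the table, 18 (45.0%) held the motif.

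Total counts ran from 13246339 to 24155465 per heart, and 67.1 to 71.9% of them fell on mitochondrial genes, so that most of the sequencing did not reach the genes described here. Plcb1, the gene that the vectors express, was at 0.806 to 1.14 FPKM (fragments scaled to exon length and library depth) in blank hearts, 3.18 to 5.28 with PLCβ1a and 4.16 to 13.2 in PLCβ1b hearts, with no overlap between blank hearts and either PLC group. Cardiomyocyte markers (Myh6, Tnnt2, Actc1, Ttn, Pln) summed to between 7733 and 9478 FPKM in every heart. Macrophage and monocyte markers summed to 73.1 to 101 FPKM in blank hearts, 69.5 to 100 in PLCβ1a hearts and 68.6 to 106 in PLCβ1b hearts. Markers of plasmacytoid dendritic cells, the main producers of interferon alpha in blood, summed to no more than 0.192 FPKM in any heart.

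All 9 genes had counts in every heart, and none passed the test of a difference between groups. On the FPKM scale, which allows for transcript length, Bst2 was highest at 6.40 ± 0.941 (SD over 18 hearts), a level above that of 73.3% of the genes tested. Rsad2 followed at 2.67 ± 0.573, then Ifit3 at 2.09 ± 0.401, Irf7 at 1.53 ± 0.287, Ifit1 at 1.36 ± 0.258 and Oasl2 at 1.16 ± 0.307. Isg15 at 0.872 ± 0.328, Usp18 at 0.674 ± 0.197 and Ifi44 at 0.627 ± 0.166 were lowest, and Ifi44 lay above only 13.8% of the genes tested. Bst2 was above Rsad2 in 18 of 18 hearts, and theirs were the only neighbours in this order whose ranges in blank hearts did not overlap. At the other end, Isg15 was above Usp18 in 11 of 18 hearts and Usp18 above Ifi44 in 10 of 18, so that the order of these 3 was not distinct.

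**Figure D1:**
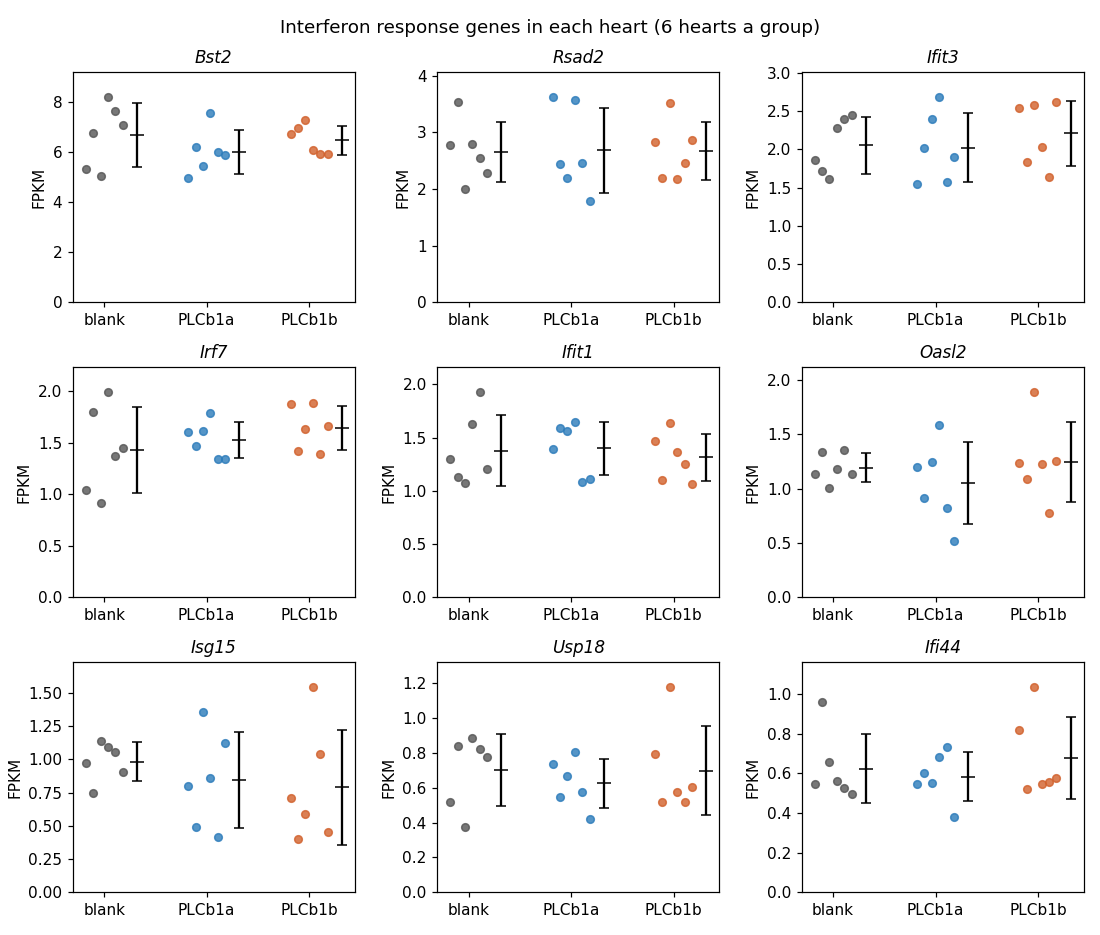
FPKM (y axis, from 0, own scale in each panel) of the 9 genes in each of the 6 hearts of the blank, PLCb1a and PLCb1b groups (x axis). Points are hearts and the bar beside them gives the mean and SD. In every panel the 3 groups overlap, from Bst2 at 4.97 to 8.24 FPKM down to Ifi44 at 0.380 to 1.04 FPKM.

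The test was edgeR's quasi-likelihood test with Benjamini-Hochberg adjustment over all 12281 genes, and a gene was called at a false discovery rate (FDR) below 0.1. In PLCβ1b against blank hearts, 0 of the 9 genes were called, beside 12 of all genes (0.0977%), and 0 had an unadjusted p below 0.05, beside 7.41% of all genes. In PLCβ1a against blank hearts the 9 genes again gave 0 calls and 0 unadjusted p below 0.05, where all genes gave 0.138% and 8.58%. In PLCβ1b against PLCβ1a hearts both counts were 0 of 9, where all genes gave 0% and 4.42%. DESeq2 and limma on log2 FPKM also called 0 of the 9 in each comparison. For none of the 9 did the hearts of a pair of groups fall into separate ranges of CPM (counts scaled to library size), which 0.48%, 0.594% and 0.179% of all genes did in the same order of comparisons. Both comparisons with blank use the same 6 blank hearts.

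The signs were mixed. In PLCβ1b against blank hearts, 6 of the 9 fold changes were above 0 and 3 below, with a median log2 fold change of 0.064, against -0.00089 over all genes tested. In PLCβ1a against blank hearts, 3 were above 0 and 6 below, with a median of -0.12 against -0.0018 over all genes. Between the PLC groups the median was 0.10, with 6 above 0 in PLCβ1b hearts and 3 below. The adjusted p (edgeR) ran from 0.814 to 0.989, from 0.768 to 0.979, and was 0.99994 for each gene in the last comparison.

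A value that misses the threshold does not show that groups are alike, so the intervals are of more use. Over the 9 genes, the 95% intervals of the fold reached from 0.510 to 1.44 in PLCβ1b against blank hearts, from 0.573 to 1.34 in PLCβ1a against blank hearts and from 0.592 to 1.59 between the PLC groups. The lower limit in all 3 was that of Isg15, the gene with the fewest counts. Without it the lowest limit in the comparisons with blank was 0.654, that of Usp18 in PLCβ1a hearts. The narrowest intervals were those of Bst2, from 0.824 to 1.11 in PLCβ1b against blank hearts.

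**Figure D2:**
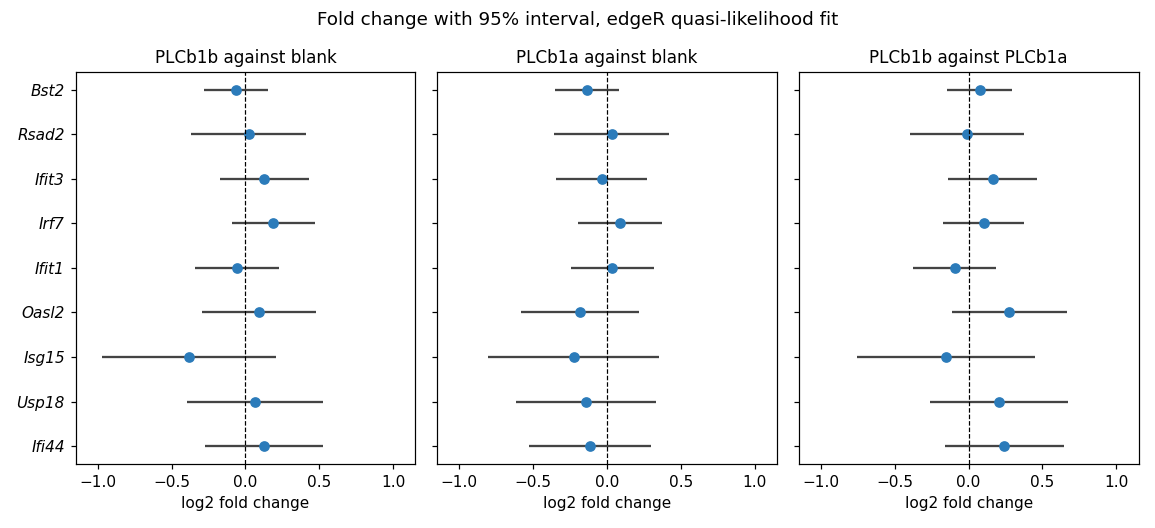
Log2 fold change (x axis) of the 9 genes (y axis, ordered by mean FPKM) in the 3 comparisons, with 95% intervals from the edgeR fit over 18 hearts. Each of the 27 intervals crosses 0, and the widest are those of Isg15.

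Irf7 and Usp18 act on the response itself. Irf7 (chr7:141263183-141266424, minus strand of mm10, 11 distinct exons in 3 transcripts) is the transcription factor that amplifies interferon alpha production. It ran from 0.912 through a median of 1.41 to 1.99 FPKM in the 6 blank hearts, from 1.34 through 1.53 to 1.78 in PLCβ1a hearts and from 1.39 through 1.65 to 1.88 in PLCβ1b hearts. The blank hearts thus held both the lowest and the highest values, and the PLC groups lay inside their range. The log2 fold change was 0.19 ± 0.14 (SE) in PLCβ1b and 0.086 ± 0.14 in PLCβ1a hearts, the former being the largest positive estimate of the 9 against blank, with an adjusted p of 0.814 (edgeR).

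Usp18 (chr6:121245906-121270917, plus strand, 11 exons) removes Isg15 from proteins and blocks signalling at the Ifnar2 receptor. It ran from 0.373 through a median of 0.798 to 0.884 FPKM in blank hearts, from 0.418 through 0.618 to 0.803 in PLCβ1a hearts and from 0.517 through 0.589 to 1.18 in PLCβ1b hearts. A single PLCβ1b heart, number 8, lay above every blank heart, while the PLCβ1b median was below that of blank hearts. Against blank hearts the log2 change was 0.064 ± 0.23 in PLCβ1b and -0.14 ± 0.23 in PLCβ1a hearts. Counts were 7 to 37 per heart.

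Isg15 (chr4:156199424-156200818, minus strand, 2 exons) encodes the ubiquitin-like protein that is attached to other proteins during the response. It had only 4 to 15 counts per heart, the fewest of the 9. Its FPKM ran from 0.747 through a median of 1.01 to 1.14 in blank hearts, from 0.417 through 0.832 to 1.36 in PLCβ1a hearts and from 0.399 through 0.651 to 1.55 in PLCβ1b hearts. The highest heart of each PLC group was above all blank hearts and the lowest was below all of them. The log2 fold change of -0.38 ± 0.29 in PLCβ1b and -0.23 ± 0.28 in PLCβ1a hearts was the lowest of the 9 in both comparisons, with adjusted p of 0.819 and 0.871 (edgeR).

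Ifit1 and Ifit3 encode paired proteins with tetratricopeptide repeats that bind viral RNA, and they are neighbours on chromosome 19. Ifit1 (chr19:34640889-34650009, plus strand, 2 exons) ran from 1.07 through a median of 1.25 to 1.93 FPKM in blank hearts, from 1.08 through 1.48 to 1.65 in PLCβ1a hearts and from 1.07 through 1.31 to 1.64 in PLCβ1b hearts. Against blank the log2 change was -0.059 ± 0.14 in PLCβ1b and 0.035 ± 0.14 in PLCβ1a hearts, the lowest hearts of the 3 groups being nearly level. Ifit3 (chr19:34583529-34588982, plus strand, 2 exons) ran from 1.61 through 2.07 to 2.45 FPKM in blank hearts, from 1.55 through 1.96 to 2.69 in PLCβ1a hearts and from 1.64 through 2.29 to 2.62 in PLCβ1b hearts. The log2 fold change of Ifit3 was 0.13 ± 0.15 and -0.036 ± 0.15. Of the 76-base windows of the Ifit3 transcript, the length of a read, 40.7% also occur in another gene, mostly in Ifit3b. How the counts and the FPKM values each treat reads shared by the pair, or leave them out, is uncertain. For Ifit1 the share was 5.11%, and for the other 7 genes it was 0%.

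Oasl2 and Rsad2 varied most from heart to heart for genes of their count. Oasl2 (chr5:114896934-114912245, plus strand, 6 exons) belongs to the oligoadenylate synthetase family. It ran from 1.01 through a median of 1.16 to 1.36 FPKM in blank hearts, from 0.516 through 1.06 to 1.59 in PLCβ1a hearts and from 0.772 through 1.23 to 1.89 in PLCβ1b hearts. Both PLC groups reached above and below the blank range, and the SD was 0.133 FPKM with the blank vector, 0.378 with PLCβ1a and 0.366 with PLCβ1b. The log2 fold change was 0.094 ± 0.19 in PLCβ1b and -0.18 ± 0.19 in PLCβ1a hearts. Between the PLC groups it was 0.28 ± 0.19, the largest difference of the 9 there, at an unadjusted p of 0.158 (edgeR).

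Rsad2 (chr12:26442743-26456452, minus strand, 6 exons) encodes viperin, which makes a chain-terminating nucleotide that stalls viral polymerases. With 87 to 273 counts per heart it was the best measured of the 9. It ran from 1.99 through a median of 2.66 to 3.54 FPKM in blank hearts, from 1.78 through 2.45 to 3.63 in PLCβ1a hearts and from 2.17 through 2.65 to 3.52 in PLCβ1b hearts. The group means of 2.65 ± 0.529, 2.68 ± 0.758 and 2.67 ± 0.513 FPKM (SD, n = 6 each) were nearly level. As a log2 fold change this was 0.022 ± 0.18 in PLCβ1b and 0.032 ± 0.18 in PLCβ1a hearts.

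Bst2 (chr8:71534262-71537437, minus strand, 5 exons) encodes tetherin, which holds budding virus at the cell surface. It ran from 5.05 through a median of 6.94 to 8.24 FPKM in blank hearts, from 4.97 through 5.95 to 7.57 in PLCβ1a hearts and from 5.92 through 6.41 to 7.28 in PLCβ1b hearts. Blank hearts spanned most of the range of both PLC groups. Its change was, on the log2 scale, -0.062 ± 0.11 in PLCβ1b and -0.14 ± 0.11 in PLCβ1a hearts, with the narrowest intervals of the 9.

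Ifi44 (chr3:151730923-151749959, minus strand, 8 exons) encodes an interferon-induced cytoplasmic protein. It ran from 0.494 through a median of 0.555 to 0.960 FPKM in blank hearts, from 0.380 through 0.576 to 0.734 in PLCβ1a hearts and from 0.522 through 0.566 to 1.04 in PLCβ1b hearts. The medians lay close together, and 1 or 2 hearts set the top of the blank and PLCβ1b ranges. Relative to blank the log2 difference was 0.12 ± 0.20 in PLCβ1b and -0.12 ± 0.20 in PLCβ1a hearts.

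The variation that stood out was between hearts of one group. The spread of Rsad2 within groups, as the SD of log2 CPM, was 0.32, where the median gene of similar count had 0.14, and it exceeded that of 98.4% of the genes in the same decile of mean count. The spread of Oasl2 was 0.37 against a median of 0.19 and also exceeded 98.4% of such genes. For Rsad2 the coefficient of variation within groups was 22.3%, 2.75 times what counting error alone would give, and for Oasl2 it was 1.89 times. Bst2, at 0.900 times, and Irf7, at 1.05 times, varied about as much as counting error gives. For Ifi44 the ratio was 1.60, and for the other 4 genes it lay between 1.13 and 1.36.

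**Figure D3:**
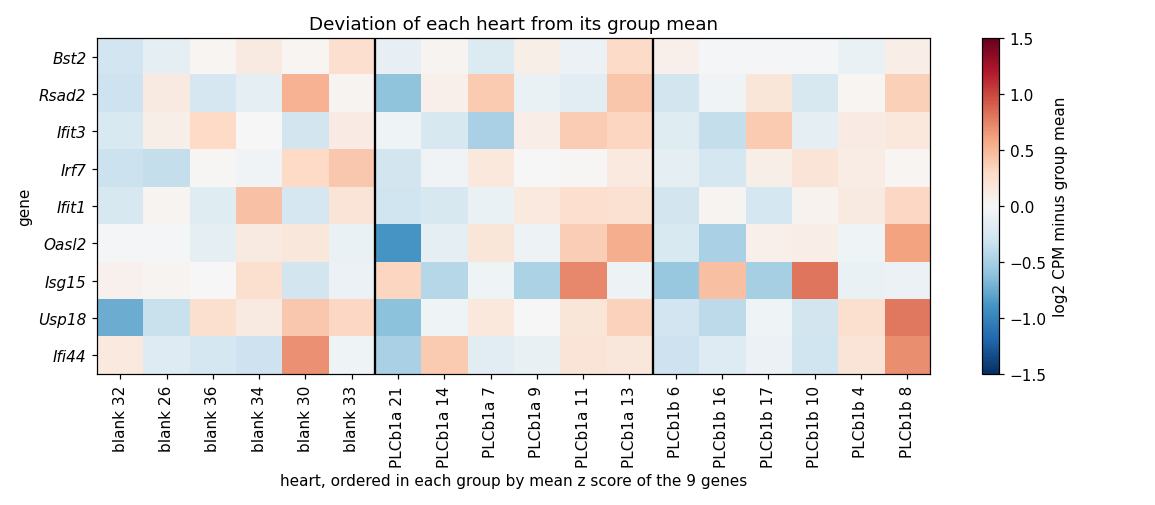
Log2 CPM of each gene (y axis, ordered by mean FPKM) minus its group mean, in each heart (x axis, ordered within a group by the mean z score of the 9 genes). PLCb1b heart 8 and PLCb1a heart 13 are above the group mean in 8 of 9 genes. PLCb1a heart 21 is above it in 1 of 9, Isg15, and PLCb1b heart 6 in 1 of 9, Bst2.

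To see whether the genes rose and fell in the same hearts, the group mean was removed from log2 CPM and each of the 36 pairs was correlated over 18 hearts, with 100000 permutations of hearts within groups and Benjamini-Hochberg adjustment over the 36. Of the 36 values of Pearson's r, 28 were positive, with a median of 0.350, where the median over all pairs of genes tested was 0 and the quartiles were -0.195 and 0.194. Of all pairs of genes tested, 89.4% had an r below that median of 0.350. The adjusted p was below 0.1 for 10 pairs by Pearson's r, and the share of all gene pairs that would pass was not computed. By Spearman's rho the adjusted p was below 0.1 for 1 pair. This last pair was Irf7 and Usp18, with r = 0.712 (permutation p = 0.00263, adjusted p = 0.0316) and rho = 0.75 (p = 0.0017, adjusted p = 0.0612), and r stayed at 0.713 when the 2 hearts most extreme in Irf7 were left out. Within groups its r was 0.865 among blank hearts, 0.946 with PLCβ1a and 0.352 with PLCβ1b. The variation of Irf7 within groups was only 1.05 times counting error. That of Usp18 was 1.33 times, at 7 to 37 counts per heart.

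Usp18, Oasl2, Rsad2 and Ifi44 made up most of the other pairs. Oasl2 and Usp18 had r = 0.694 (permutation p = 0.00075, adjusted p = 0.0270) and rho = 0.585 (p = 0.0101, adjusted p = 0.129), with r of 0.992 in PLCβ1a, 0.840 in PLCβ1b and 0.187 in blank hearts. Rsad2 and Usp18 had r = 0.672 and Oasl2 and Rsad2 r = 0.667, and all 3 within-group values were positive for both. Rsad2 and Ifi44 had r = 0.638. Without the 2 hearts farthest in the first gene, these 4 values of r fell to between 0.427 and 0.554. Isg15 stood apart. Of its 8 pairs 7 were negative, down to -0.370 with Rsad2, while 27 of the 28 pairs among the other 8 genes were positive. At 4 to 15 counts per heart, Isg15 deviations were 1.13 times the size of counting error.

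**Figure D4:**
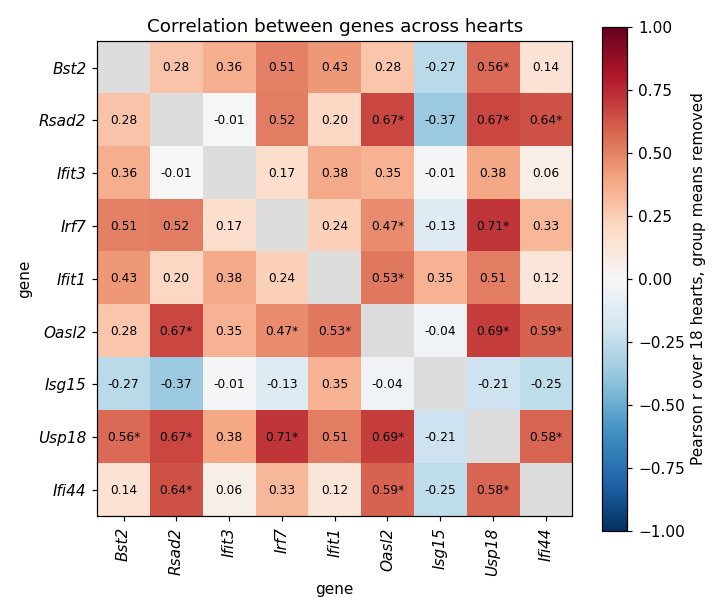
Pearson's r (colour and number) between the 9 genes over 18 hearts after removal of the group means, both axes ordered by mean FPKM. Asterisks mark the 10 pairs with an adjusted permutation p below 0.1, none of which includes Isg15 or Ifit3.

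These pairs rested on few hearts. Averaged as z scores over the 9 genes, PLCβ1b heart 8 was highest at 1.06 and PLCβ1a heart 13 next at 1.003, each above its group mean in 8 of 9 genes, and PLCβ1a heart 21 was lowest at -1.16, above its group mean in 1 of 9. Without PLCβ1a heart 21 the number of pairs past the threshold was 0, without PLCβ1b heart 8 it was 3, and without PLCβ1a heart 13 it was 4. Without all 3 hearts it was 0, and in log2(FPKM + 0.1) it was 18. The high and low hearts came from both PLC groups, and blank heart 32, at -0.870, was the lowest of its group. PLCβ1b heart 6, the lowest of its group at -0.744, was also above its group mean in only 1 of 9 genes.

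Macrophage markers moved with some of the 9 genes. They were the only cell markers set against single genes. After seeing the pairs, each gene was set against the mean log2 CPM of 9 macrophage and monocyte markers, against Plcb1 in the 12 PLC hearts, and against the mitochondrial share of counts, which gave 27 relations adjusted together, again with group means removed. With the macrophage markers 7 of the 9 genes had a positive r, beside 49.5% of the 12272 genes tested that are not such markers, and 3 passed an adjusted p below 0.1. Of those 12272 genes 0.139% had an r as high as that of Rsad2, 0.334% as high as that of Usp18 and 3.10% as high as that of Irf7. Rsad2 had r = 0.758 (permutation p = 0.00071, adjusted p = 0.00958) and rho = 0.690 (p = 0.00343, adjusted p = 0.0463), with r = 0.685 without the 2 hearts farthest in the markers. Within groups it was 0.679 among blank hearts, 0.843 with PLCβ1a and 0.741 with PLCβ1b. Usp18 had r = 0.718 (permutation p = 0.00039, adjusted p = 0.00958) and rho = 0.730 (p = 0.00063, adjusted p = 0.0170), with r = 0.705 without the 2 farthest hearts. Its within-group values were 0.751, 0.715 and 0.858 in the same order. Leaving out each heart in turn kept r between 0.697 and 0.813 for Rsad2 and between 0.642 and 0.793 for Usp18.

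Irf7 was the third, with r = 0.535 (permutation p = 0.00939, adjusted p = 0.0634) and rho = 0.583 (p = 0.00937, adjusted p = 0.0506). Its r within PLCβ1b hearts was only 0.172, and its variation within groups was 1.05 times counting error. Isg15 and Ifit3 had r of -0.081 and -0.027. The summed macrophage markers were 106 FPKM in PLCβ1b heart 8, the highest of the 18 hearts, and 69.5 FPKM in PLCβ1a heart 21, the lowest of its group. Endothelial markers were also highest in PLCβ1b heart 8, at 79.1 FPKM. The median r with the mean z score of the 9 genes was 0.471 for macrophage and 0.512 for endothelial markers. For fibroblast markers it was 0.517, with 2 of 3 positive. What part the number of macrophages has in these values was not tested. With the mitochondrial share of counts no relation passed, the smallest adjusted p being 0.328.

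With Plcb1 over the 12 PLC hearts, 1 of the 9 genes passed. Values of r ran from -0.642 to -0.0024, beside 50.2% of all other genes with a negative r, and for Ifit3 and Bst2 they turned positive without the 2 hearts farthest in Plcb1 (0.088 and 0.036). Rsad2 had r = -0.642 (permutation p = 0.00512, adjusted p = 0.0461) and rho = -0.706 (p = 0.00868, adjusted p = 0.0506). Of all other genes, 2.70% had an r with Plcb1 as low as that of Rsad2. The value was -0.763 without the 2 hearts farthest in Plcb1, -0.952 within PLCβ1a hearts and -0.691 within PLCβ1b hearts. Within PLCβ1a hearts r was also -0.969 for Irf7, -0.870 for Usp18 and -0.813 for Oasl2, but 0.345 for Isg15 and 0.210 for Ifit3. Within PLCβ1b hearts Irf7 was at 0.217, so values over 6 hearts were unstable. PLCβ1a heart 21 had the highest Plcb1 of its group at 5.28 FPKM and the lowest Rsad2 at 1.78 FPKM, while PLCβ1b heart 8 had the lowest Plcb1 of its group at 4.16 FPKM and the highest Rsad2 at 3.52 FPKM. These same hearts were low and high in macrophage markers, and what part each has in the relation was not tested. Leaving out each PLC heart in turn kept the r of Rsad2 with Plcb1 between -0.766 and -0.572. The group means of Rsad2 did not follow Plcb1, which was at 0.986 ± 0.113 FPKM in blank hearts and 8.28 ± 3.38 with PLCβ1b while those of Rsad2 were nearly level.

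**Figure D5:**
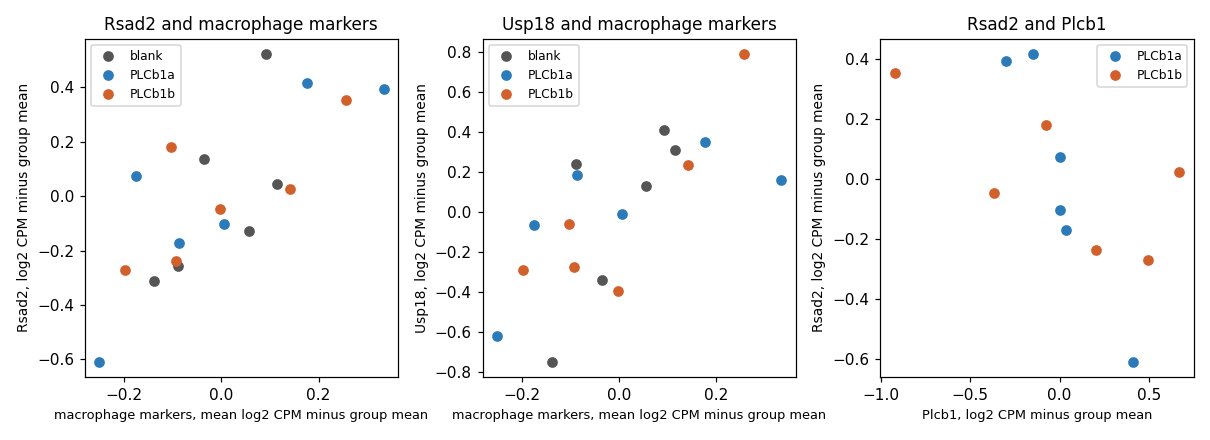
Rsad2 (left) and Usp18 (middle) against the mean of 9 macrophage and monocyte markers in 18 hearts, and Rsad2 against Plcb1 in the 12 PLC hearts (right), all as log2 CPM minus the group mean. Points are hearts, coloured by group. The points rise together at left and in the middle (r = 0.758 and 0.718) and fall at right (r = -0.642).

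The genes whose pattern over hearts was most like that of the 9 were found from r with the mean z score of the 9, group means removed, over 18 hearts, as a description without a test. The 10 highest were Tmem140 (r = 0.879), Ints4 (0.839), Bdh1 (0.821), Ly6e (0.820), Lrrc16a (0.820), Hexa (0.820), Lgals3bp (0.808), Csf2ra (0.807), Gbp3 (0.807) and Dcaf5 (0.806). Ly6e encodes a membrane protein used as an interferon marker, Gbp3 a guanylate-binding protein and Lgals3bp a secreted glycoprotein that binds galectin 3. Hexa encodes a lysosomal hexosaminidase, Bdh1 a mitochondrial enzyme of ketone body use and Ints4 a subunit of the Integrator complex. In log2(FPKM + 0.1) 5 of these 10 remained among the 10 highest, and leaving out single hearts kept 4 to 8, the fewest without PLCβ1a heart 21. Among 45 other interferon-induced genes tested, a list that includes Gbp3 and Lgals3bp, 44 had a positive r with a median of 0.459. Of receptors and signal transducers 10 of 12 were positive (median 0.322), and of sensors and adaptors 14 of 19 (0.320). For Isg15 conjugation it was 3 of 3 (0.461), for antigen presentation 9 of 11 (0.298) and for regulators 5 of 10 (-0.058). Macrophage markers were positive in 9 of 9 with a median of 0.471 and endothelial markers in 4 of 4 with a median of 0.512. The medians were 0.517 for fibroblast markers (2 of 3 positive), 0.336 for cardiomyocyte markers (4 of 5) and 0.217 for atrial markers (3 of 3), whereas 6012 of all 12272 other genes were positive with a median of -0.0076.

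No other gene of the pathway passed the test either. A list of 123 other genes in the tables covered ligands, receptors, sensors, induced genes, Isg15 conjugation, antigen presentation and regulators, and 100 of them were tested. In each of the 3 comparisons 0 of the 100 were called by edgeR's quasi-likelihood test. An unadjusted p below 0.05 was found for 6%, 6% and 4% of them, beside 7.41%, 8.58% and 4.42% of all genes. The median log2 fold changes of the 100 were 0.020, 0.022 and 0.024.

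The ligands themselves were almost without counts. The 13 interferon genes listed were of the alpha, beta, epsilon, kappa, gamma and lambda types. Together they had 4 counts in total over all 18 hearts. No single gene had more than 1 count in any heart, so none was tested. At this depth no difference in ligand RNA could have been seen. The 12 receptor and transducer genes ran from 0.440 to 44.2 FPKM in blank hearts, with a median of 4.50. The highest was Ifngr2, a chain of the interferon gamma receptor, at 44.2 ± 3.50 FPKM in blank hearts, 41.1 ± 3.20 with PLCβ1a and 42.0 ± 4.14 with PLCβ1b (SD, n = 6 each). Il10rb, a chain shared by the interferon lambda and interleukin 10 receptors, was at 25.4 ± 1.61 FPKM in PLCβ1a hearts, and Jak1, a receptor kinase, at 16.9 ± 0.909 in blank hearts. The chains of the type I receptor, named after their values were seen, were at 2.20 ± 0.133 FPKM (Ifnar1) and 7.29 ± 0.907 (Ifnar2) in blank hearts. All 12 genes of this list were tested. Ifngr1, the ligand-binding chain of the interferon gamma receptor and named after its values were seen, had log2 fold changes of -0.17 ± 0.075 in PLCβ1b and -0.18 ± 0.075 in PLCβ1a hearts, with adjusted p of 0.601 and 0.481 (edgeR). These estimates share the blank hearts.

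Of 21 sensors and adaptors, 19 were tested. Mavs, the adaptor of the RNA sensors on mitochondria, was at 10.2 ± 1.22 FPKM in blank hearts, 9.66 ± 0.894 with PLCβ1a and 9.67 ± 1.16 with PLCβ1b. Irf3 at 3.80 ± 0.541 and Tbk1, its activating kinase, at 3.67 ± 0.572 followed in blank hearts. Dhx58, an RNA sensor named after its values were seen, had the highest log2 fold change of this list in PLCβ1b hearts at 0.76 ± 0.31, with an adjusted p of 0.599 (edgeR). Tlr7, an endosomal RNA receptor also named after its values were seen, had -0.33 ± 0.15 in PLCβ1a hearts, with an adjusted p of 0.526.

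Among 52 other induced genes, of which 45 were tested, Ifitm3 and Ifitm2, membrane proteins that hinder viral entry, were most abundant at 30.9 ± 2.40 and 23.1 ± 1.39 FPKM in blank hearts. Ifi27l2a was at 13.4 ± 3.21 FPKM in blank and 13.8 ± 3.22 in PLCβ1a hearts. An unadjusted p below 0.05 was found for 3 of the 45 in PLCβ1b against blank hearts, all higher (beside 7.41% of all genes in either direction), for 1 higher and 1 lower in PLCβ1a against blank hearts (8.58%) and for 1 higher and 1 lower between the PLC groups (4.42%). The lowest adjusted p of the 100 genes in any comparison, 0.305 (edgeR), was that of Gbp2, a guanylate-binding protein named after its values were seen, whose estimate in PLCβ1a hearts was -0.30 ± 0.098 (log2).

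In the Isg15 conjugation list, Ube2l6, the enzyme that passes Isg15 to its targets, was at 2.79 ± 0.642 FPKM in blank hearts, 3.81 ± 0.562 with PLCβ1a and 3.31 ± 1.18 with PLCβ1b. On the log2 scale the PLCβ1a value was higher by 0.51 ± 0.20, with an adjusted p of 0.465 (edgeR). It was the 1 gene of the 100 whose PLCβ1a and blank hearts did not overlap in CPM, beside 0.594% of all genes, and the other comparisons had 0 such genes. Uba7, the enzyme that activates Isg15, was level at 2.50 ± 0.354 and 2.49 ± 0.531 FPKM in blank and PLCβ1a hearts. In antigen presentation B2m, the light chain of class I molecules, was at 98.7 ± 7.23 FPKM with the blank vector and 105 ± 15.2 with PLCβ1b, with H2-D1 at 25.7 ± 2.82 and H2-K1 at 22.3 ± 2.39 in blank hearts. Of the regulators, Ptpn11, a phosphatase, was at 20.6 ± 1.59 FPKM, Irf2bp2, a corepressor, at 9.66 ± 0.862 and Irf1 at 4.48 ± 0.632 in blank hearts. Irf2bp2 differed by -0.17 ± 0.061 (log2) in PLCβ1a hearts, with an adjusted p of 0.377 (edgeR).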

How the data were processed

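Per the labels, rRNA-depleted RNA of 18 hearts was made into strand-specific, paired-end TruSeq libraries. The authors aligned reads to mm10 with TopHat and used HTSeq, in its strand-specific union mode, to assign them to genes. The submitters' processing notes list TopHat2 2.0.10, Bowtie2, Cufflinks 2.1, DESeq and edgeR. The authors deposited raw read counts per gene, not normalized, and FPKM values, for which the program is not given in the paper. Mitochondrial genes (37) take most of the counts.

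Counts were scaled by TMM and filtered with filterByExpr (minimum count 10, minimum total 15, smallest group 6). They were then fitted in 1 model of the 3 groups with edgeR 4.0.16 (robust quasi-likelihood test) under R 4.3.3, with Benjamini-Hochberg adjustment over 12281 genes. Each heart is 1 animal and no batch is labelled. Log2 CPM used a prior count of 2. Correlations used numpy 2.4.6 and pandas 2.3.3 under Python 3.11.15, and figures matplotlib 3.10.9. The programs were tested on simulated data.

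The 9 genes, the pathway and marker lists and the tests were chosen with earlier results of these data known. Named were the 9 genes, called genes of each list, its 3 highest in blank FPKM, the 10 genes most alike and Plcb1. Others are marked. The relations with macrophage markers, Plcb1 and mitochondrial share were added after seeing the pairs. Alternatives were DESeq2 1.42.0, limma 3.58.1 on log2(FPKM + 0.1) or log2(FPKM + 1), upper-quartile scaling, no filter, only the groups compared, mitochondrial genes left out, an FDR below 0.05, a prior count of 0.5, no group mean removed, and each heart left out. A fit without robust moderation, the pairs without the 3 most extreme hearts, and the alternatives for the genes most alike and for the relations were chosen after seeing the data. Intervals of the fit cover the spread between hearts. The deposited gene annotation gave coordinates on mm10.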

Additional observations from a re-analysis of the deposited data

Results flagged for a closer look

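Each group of 6 hearts was screened for a heart whose gap to the rest, as a share of the group's range, passed Dixon's 95% critical value, for the 9 genes and Plcb1 in CPM and for 10 marker lists in summed FPKM. Of 60 groups 2 held such a heart, where chance gives about 1 in 20. Cardiomyocyte markers summed to 7733 FPKM in PLCβ1a heart 14, and the next lowest heart of that group was at 8416. Markers of T and NK cells summed to 0.309 FPKM in PLCβ1b heart 17, and the next highest was at 0.134. These sums rest on very few reads. No marker of this list had more than 3 counts in a PLCβ1b heart, and none passed the filter on low counts. None of the 9 interferon response genes had a heart flagged by this screen in any group.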

How the results depend on the processing

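No paired analysis was made, because each heart is a separate animal and the labels describe no pairing between groups. The counts of 0 called among the 9 genes and among the 100 pathway genes were 0 in every alternative run, heart by heart omissions included. The lowest adjusted p of the 9 was 0.642 over 728 values of these runs, of which those at an FDR below 0.05 repeat the main fit. Of those 728, 37 changed sign, in 12 of the 27 combinations of gene and comparison. All 27 had a 95% interval that crosses 0 in the main fit, whether or not they changed sign. In limma on log2(FPKM + 0.1) and log2(FPKM + 1), Usp18 in PLCβ1b against blank hearts was -0.011 and -0.00617, Rsad2 in PLCβ1a against blank was -0.0076 and -0.00148, and Rsad2 in PLCβ1b against PLCβ1a was 0.020 and 0.011. With single hearts left out, log2 fold changes in PLCβ1b against blank ran from -0.13 to 0.057 for Ifit1, -0.062 to 0.17 for Oasl2, -0.058 to 0.15 for Rsad2, -0.16 to 0.14 for Usp18 and -0.065 to 0.31 for Ifi44. In PLCβ1a against blank they ran from -0.016 to 0.15 for Ifit1, -0.12 to 0.074 for Ifit3, -0.066 to 0.16 for Rsad2 and -0.19 to 0.070 for Ifi44. Between the PLC groups they ran from -0.37 to 0.047 for Isg15, -0.12 to 0.089 for Rsad2 and -0.020 to 0.28 for Usp18. Leaving out PLCβ1b heart 8 turned Oasl2, Usp18 and Ifi44 below 0 against blank, and Usp18 was also below 0 without blank heart 32.

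Genes called in all in PLCβ1b against blank went from 12 to 7 at an FDR below 0.05, 24 without the filter, 24 with DESeq2, and 3 and 5 with limma (0.1 and 1 added). In PLCβ1a against blank they went from 17 to 4, 29, 33, and 6 and 5 in the same order, and to 10 without robust moderation and 10 with only the groups compared. Between the PLC groups 1 gene was called without robust moderation, 1 with DESeq2 and 1 with limma (1 added). With hearts left out the counts were 2 to 18, 3 to 19 and 0 to 1. In PLCβ1b against blank the hearts that moved the count most were blank 34 and PLCβ1b 17 (2 genes each), PLCβ1b 4 (4) and PLCβ1b 6 (6). In PLCβ1a against blank they were blank 34 and PLCβ1a 11 (3 each), PLCβ1a 7 (7), blank 32 (8), PLCβ1a 14 (9) and blank 36 (10). Between the PLC groups 1 gene was called without PLCβ1a 14 and 1 without PLCβ1b 8. Of the correlated pairs, 10 became 18 in log2(FPKM + 0.1), 0 without the 3 extreme hearts, and 0 to 11 with single hearts left out. Of the 10 most alike genes, 5 were shared in log2(FPKM + 0.1) and 4 to 8 with hearts left out, with 4 without PLCβ1a 21 and 5 without blank 32, PLCβ1a 7, PLCβ1a 13, PLCβ1b 8 or PLCβ1b 16. The relations of Rsad2 and Usp18 with macrophage markers and of Rsad2 with Plcb1 kept an unadjusted permutation p below 0.05 in each alternative run. In log2(FPKM + 0.1) the last weakened to r = -0.533. The cause of these shifts was not tested. Depth limits Isg15, Usp18 and the ligands most.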
